A study of Mus musculus with 23 samples.

Results

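Single-copy CpG island fragments are pieces of the mouse genome between neighbouring CCCGGG sites that lie in a CpG island and carry no annotated repeat. They were chosen from the deposited read table as the fragments from 21 bp to under 2000 bp on chromosomes 1 to 19 whose CpG annotation names an island and whose repeat class is empty. The rule uses annotation alone and found 13765 of the 173430 fragments in the table. Of these, 9625 were annotated to an island alone and 4140 to an island with its shore, the flank of an island. Promoters, taken as 2000 bp before to 500 bp after a gene's start, held or touched 11505 of them. A further 895 overlapped an exon, 739 lay in an intron and 626 had no gene. Their median length was 243 bp, with a median of 22 CpG dinucleotides a GC content of 70.2% and a ratio of observed to expected CpG of 0.766.

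CpG islands are stretches of DNA rich in C, G and the dinucleotide CpG, and many gene promoters lie in them. Most of the genome's CpGs are methylated in adult cells, while islands mostly stay free of methylation. Island methylation is known at imprinted genes, on the inactive X chromosome and at some germ line genes, and promoters that carry it are usually silent. In AIMS-seq, SmaI first cuts unmethylated CCCGGG sites and leaves blunt ends. XmaI then opens the remaining, methylated sites and leaves cohesive ends that accept an adaptor. A fragment is therefore read when the sites at both of its ends are methylated, and the method counts fragments rather than single cytosines.

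The study followed DNA methylation in the muscle lineage of the mouse with 23 libraries in 9 groups. The embryonic stem cells (ESC) were the lines CGR8 (129Sv background, a library and a technical replicate, summed here), RD1 (129X1/SvJ) and E14Tg2 (129/Ola). Primary myoblasts came from male C57BL/6J mice as cultures 21, 26 and 27. They were collected at passage 8 to 10 while dividing, and as myotubes at days 1, 2 and 4 in differentiation medium. Cultures 26 and 27 were also collected at passage 0. Freshly isolated cells gave 1 uncultured library from uninjured muscle and 1 from muscle taken 3 days after CTX injury. Whole skeletal muscle gave 3 libraries, samples 1 and 2 of mixed 129Sv/C57BL/6J background and sample 3 of C57BL/6J. No ages are given. The samples held 6237851 to 24505365 reads. ESC differ from every other group in strain as well as in cell type, so these cannot be told apart. Muscle samples 1 and 2 also differ in strain from the C57BL/6J myoblasts, so for them strain and tissue cannot be told apart. Whole muscle holds vessel, nerve, connective tissue and blood cells beside fibres, and a change in the share of cells cannot be told apart from a change within cells. Each line or culture is a single derivation, and p-values measure the spread between these samples.

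The sequences below carry the main contrasts. They are from mm9, 5′ to 3′ on the forward strand. Capitals mark CpG dinucleotides and the CCCGGG sites at the ends, whose methylation decides whether the fragment is read. For fragments over 300 bases only the first part is printed, so that the second site is not shown. Znrf4 (chr17:56650009-56650308, first part) and Emx2os (chr19:59525352-59525651, first part) were read mainly in ESC. Lgmn (chr12:103677593-103677828) was read in muscle and myoblasts and had 1 read in ESC. The neighbouring Ldb3 fragments A (chr14:35361975-35362119) and B (chr14:35362114-35362227) share the site between them. The Pax7 promoter fragment (chr4:139388425-139388509) is the shortest shown. Zfhx3 (chr8:111475025-111475238) had fewer reads in muscle than elsewhere, and 4933415F23Rik (chr1:23108725-23108944) was read in every library.
Znrf4: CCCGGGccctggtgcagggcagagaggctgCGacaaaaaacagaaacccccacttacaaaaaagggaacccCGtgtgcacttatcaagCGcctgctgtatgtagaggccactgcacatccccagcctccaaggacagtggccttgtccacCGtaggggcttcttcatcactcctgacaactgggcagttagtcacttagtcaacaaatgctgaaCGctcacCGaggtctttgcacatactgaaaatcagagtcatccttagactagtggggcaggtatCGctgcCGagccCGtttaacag
Emx2os: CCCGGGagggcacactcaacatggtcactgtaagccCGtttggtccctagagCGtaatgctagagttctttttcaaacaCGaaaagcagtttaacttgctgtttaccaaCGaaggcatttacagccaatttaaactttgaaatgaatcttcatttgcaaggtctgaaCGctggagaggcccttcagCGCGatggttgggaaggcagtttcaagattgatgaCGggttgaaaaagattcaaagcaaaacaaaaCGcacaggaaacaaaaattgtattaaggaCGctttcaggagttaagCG
Lgmn: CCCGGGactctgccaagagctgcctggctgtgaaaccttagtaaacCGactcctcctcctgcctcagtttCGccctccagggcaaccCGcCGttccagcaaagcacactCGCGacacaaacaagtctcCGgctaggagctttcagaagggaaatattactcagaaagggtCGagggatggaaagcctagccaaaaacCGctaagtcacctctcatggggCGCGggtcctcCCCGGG
Ldb3 fragment A: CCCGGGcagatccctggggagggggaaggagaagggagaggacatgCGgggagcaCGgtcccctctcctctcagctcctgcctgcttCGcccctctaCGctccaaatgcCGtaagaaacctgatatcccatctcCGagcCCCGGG
Ldb3 fragment B: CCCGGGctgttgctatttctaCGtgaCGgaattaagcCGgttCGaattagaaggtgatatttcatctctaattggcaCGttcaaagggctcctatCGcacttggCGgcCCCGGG
Pax7: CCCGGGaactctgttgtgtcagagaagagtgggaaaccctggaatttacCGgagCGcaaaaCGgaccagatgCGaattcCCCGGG
Zfhx3: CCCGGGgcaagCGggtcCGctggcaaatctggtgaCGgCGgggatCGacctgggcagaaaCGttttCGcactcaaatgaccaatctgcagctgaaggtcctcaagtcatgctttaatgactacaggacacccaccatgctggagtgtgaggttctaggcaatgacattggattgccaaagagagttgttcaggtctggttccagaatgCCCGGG
4933415F23Rik: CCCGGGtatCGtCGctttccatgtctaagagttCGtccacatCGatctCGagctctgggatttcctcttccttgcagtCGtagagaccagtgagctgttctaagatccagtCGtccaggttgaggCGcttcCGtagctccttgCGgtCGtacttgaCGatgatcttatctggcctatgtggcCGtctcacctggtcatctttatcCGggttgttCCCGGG

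Most single-copy island fragments gave few reads or none, and those that gave many were the less GC-rich. Of the 13765 fragments, 6693 (48.6%) had no read in any library, and the median fragment had 1 read over all samples. The unread fragments had a median length of 152 bp and a median GC content of 73.9%. Enough reads for a test over the 7 groups with replicates were present in 824 fragments (5.99%), with medians of 378 bp, 55.5% GC and an observed to expected CpG ratio of 0.531. By GC content, 173 of the 380 fragments under 50% passed that filter, against 9 of the 2461 between 65% and 70% and 1 of the 4097 at 75% or more. The same order was seen in ESC, myoblasts and muscle when every library was thinned to 6237851 reads, the smallest total. Among fragments under 50% GC, 5 or more reads were found in a mean of 33.3% in ESC, 32.2% in myoblasts and 39.4% in muscle. The levels given from here on come mostly from these less GC-rich islands. For the others an absence of reads was not told apart from a low yield of GC-rich or short fragments, which was not tested.

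**Figure D1:**
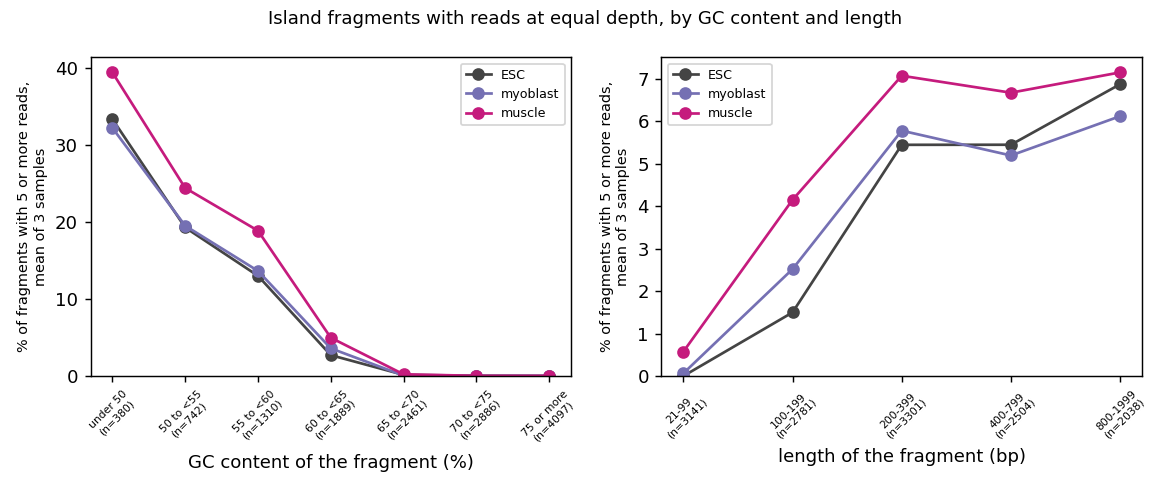
Percentage of single-copy island fragments with 5 or more reads at equal depth, by GC content (left) and by length (right), as the mean of the 3 samples in ESC, myoblasts and muscle. The share falls from 33.3%, 32.2% and 39.4% below 50% GC to near 0 above 65% GC in all 3 groups.

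Summed over all single-copy island fragments, whole muscle had more reads per 1000000 reads of the library (CPM) than ESC or dividing myoblasts. The sum was 28661 and 40413 CPM in the mixed-background muscle samples and 13456 CPM in the C57BL/6J sample. In ESC it was 3224 CPM in CGR8, 5405 CPM in RD1 and 3409 CPM in E14Tg2. In dividing myoblasts it was 2578 CPM in culture 21, 11371 CPM in culture 27 and 10284 CPM in culture 26. Muscle did not overlap ESC or myoblasts, and ESC and myoblasts overlapped each other. The mean of 27510 ± 13516 CPM (SD, n = 3) in muscle was 6.86 times that of 4013 ± 1210 CPM (n = 3) in ESC, with a 2-sided exact permutation p of 0.1. It was 3.41 times the mean of 8078 ± 4794 CPM (n = 3) in myoblasts, also with an exact permutation p of 0.1. With 3 samples against 3 this is the smallest p possible, and adjusted over the 7 comparisons of sums both were 0.35. Myoblasts were at 2.01 times ESC, with an exact permutation p of 0.4. The CGR8 sum joins 2461 CPM in the first library and 4366 CPM in its technical replicate, a gap between libraries of the same cells that is about as wide as the gap between ESC lines.

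**Figure D2:**
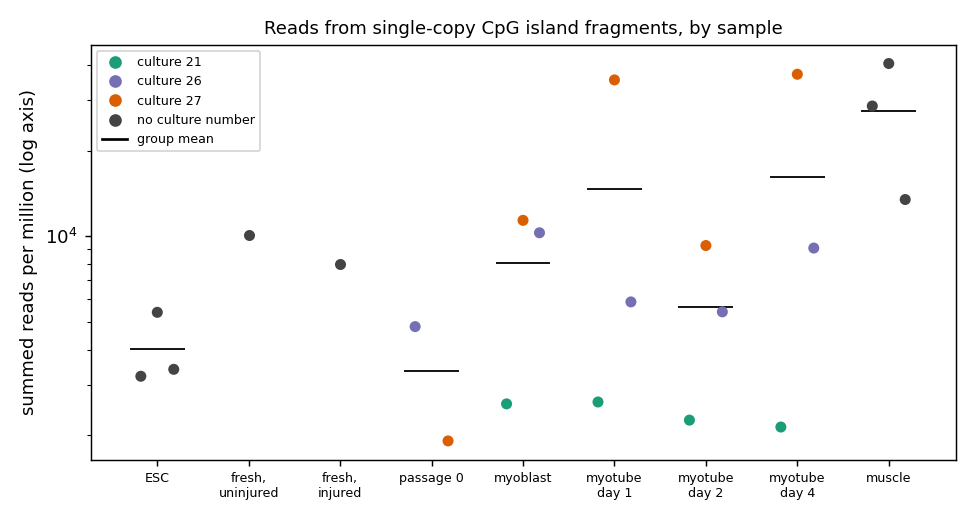
Summed CPM over the 13765 single-copy island fragments in each of the 22 samples, on a log axis, by group, with points coloured by culture and a bar at the group mean. Muscle (13456 to 40413 CPM) lies above ESC (3224 to 5405 CPM), while the myotube groups range from 2138 CPM in culture 21 to 37050 CPM in culture 27.

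Among the cultured cells, culture 21 had the lowest island sum on each day and culture 27 varied most between days. Culture 21 held few island reads, at 2618 CPM on day 1, 2261 CPM on day 2 and 2138 CPM on day 4. Culture 26 held 5880 CPM, 5426 CPM and 9088 CPM on those days. Culture 27 held 35394 CPM on day 1, 9276 CPM on day 2 and 37050 CPM on day 4. Day 1 and day 4 of culture 27 were as high as whole muscle, and day 2 of the same culture was below its myoblasts. Against the same culture's myoblasts, day 1 stood at ratios of 1.02 in culture 21, 0.572 in culture 26 and 3.11 in culture 27. The ratios on day 4 were 0.829, 0.884 and 3.26 in that order, and on day 2 they were 0.877, 0.528 and 0.816. On day 2 all 3 cultures lay below their own myoblasts. The unpaired exact permutation p-values of the sums were 0.8 on day 1, 0.5 on day 2 and 0.9 on day 4, and paired by culture they were 0.75, 0.25 and 1. The smallest possible are 0.1 and 0.25, so the design cannot reach 0.05. The means stood at 1.81, 0.70 and 1.99 times that of myoblasts. Without the culture 27 sample of that day, the log2 ratio of the means turned from 0.86 to −0.93 on day 1 and from 0.99 to −0.53 on day 4.

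Both fresh libraries held more island reads than ESC, and passage 0 of culture 27 held the fewest of all 22 samples. The uninjured fresh library held 10076 CPM, or 1.008% of its reads (95% exact interval 0.9998 to 1.015%), and the library from injured muscle 8015 CPM, or 0.802% (0.795 to 0.808%). These intervals cover counting error only, and reads amplified by PCR are not independent molecules. Passage 0 held 4816 CPM in culture 26 and 1911 CPM in culture 27. Both fresh libraries were above both passage 0 cultures, with 1 library each and so no test. Later myoblasts of culture 26 stood at 2.14 times their passage 0 level and those of culture 27 at 5.95 times. Over the groups the ratio was 2.40, with an exact permutation p of 0.4 where 0.2 is the smallest possible.

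The higher island sum in muscle was seen in every gene context, though 100 fragments held most of the reads. The 100 highest fragments of each sample held 59.6 to 63.2% of its island reads in muscle and 63.2 to 75.8% in ESC. Promoter fragments took 20148, 28100 and 9031 CPM in the 3 muscle samples, against 1785 to 2935 CPM in ESC. Leaving out the 10 fragments with the highest mean level left 12052 to 37646 CPM in muscle and 2318 to 4259 CPM in ESC. The number of fragments with 5 or more reads at equal depth moved less than the sum. It was 705, 711 and 622 in muscle, 385, 610 and 498 in ESC, and 218, 686 and 648 in myoblasts. Muscle and ESC did not overlap (exact permutation p of 0.1, adjusted 0.7), and muscle and myoblasts did. Single-copy shore fragments held 27231 to 68567 CPM over all samples, and the ratio of island to shore reads in muscle was 3.49 times that in ESC without overlap (exact permutation p of 0.1, adjusted 0.35). The ratio of single-copy islands to islands that carry a repeat went the other way, at 0.651 times the ESC ratio without overlap (exact permutation p of 0.1, adjusted 0.35).

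The same few libraries held the highest value of nearly every well-read island fragment. Of the 824 tested fragments, day 4 of culture 27 was highest in 386, muscle sample 2 in 239, day 1 of culture 27 in 96 and muscle sample 1 in 31. Together these 4 libraries held the maximum of 752 fragments (91.3%). They also had the 4 largest island sums, and the low-count filter keeps a fragment with enough reads in few libraries. The share was thus in part set by the filter and the sums. The rank order of levels over the 824 fragments had Spearman coefficients of 0.93 to 0.97 between muscle samples and of 0.88 to 0.91 between ESC lines. Muscle with ESC gave 0.55 to 0.72, and muscle with day 1 of culture 27 gave 0.93 to 0.95. The stages of culture 27 ranged from 0.49 to 0.91 among themselves. These coefficients describe fragments that share libraries and base composition, and they carry no p.

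In the comparison of whole muscle with ESC, most tested island fragments were higher in muscle. With edgeR's quasi-likelihood test and Benjamini-Hochberg adjustment over all fragments, 535 of the 617 tested island fragments were higher and 17 lower. Among all 22980 fragments tested, 24.4% were higher and 34.6% lower. The median log2 change was 4.36 over the island fragments and −0.34 over all fragments, and 3.43 and −1.14 with library totals in place of TMM. By context, 407 of 451 promoter fragments were higher and 5 lower, as were 30 and 9 of 55 exonic, 60 and 1 of 65 intronic and 38 and 2 of 46 intergenic ones. Island fragments with a repeat had 85.7% higher, single-copy shores 61.4% and other single-copy fragments 29.2%. A scaling to the island fragments themselves sets their own bulk near 0 (median 0.11) and that of all fragments at −4.39, so it asks which islands stand apart from the rest. By it, 43 were higher and 116 lower, beside 3.3% and 85.8% of all fragments. Of the 535 higher fragments, 43 stayed higher in that scaling and 35 turned to lower, while all 17 lower fragments stayed lower. In the C57BL/6J muscle sample alone, with a spread taken from ESC, the median log2 change was 3.07 over the island fragments and −0.70 over all. The low-count filter keeps a fragment with enough reads in 1 group alone, so fragments high only in muscle are among those tested. With every sample and no filter, 618 were higher and 42 lower of 4286 (15.4% called, beside 12.3% of all). Their median was 0.86, and 57.3% lay above 0, against 95.1% of the 617. DESeq2 gave 612 higher and 25 lower of 1138 (56.0%, beside 24.9%), with a median of 1.05.

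**Figure D3:**
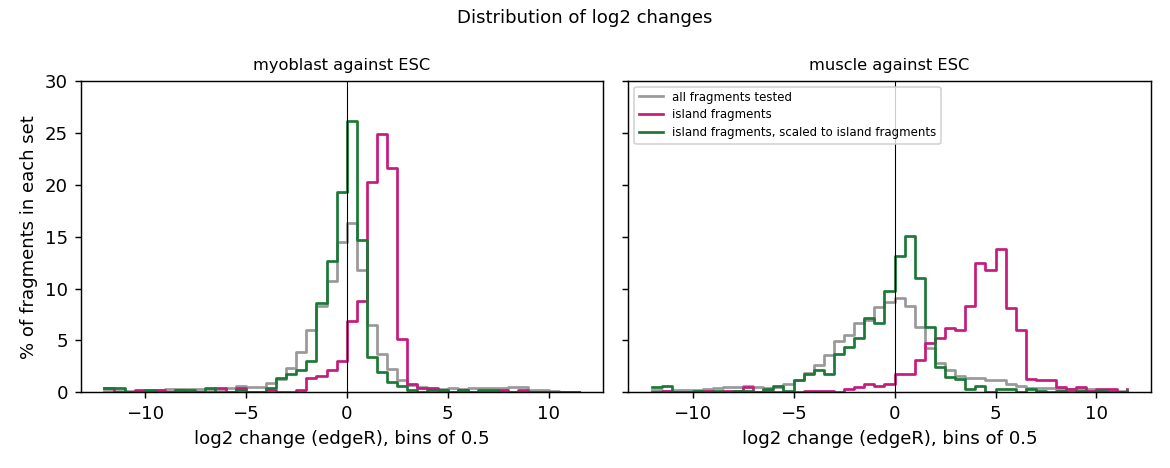
Distribution of edgeR log2 changes for myoblasts against ESC (left) and muscle against ESC (right), for all fragments tested, for the single-copy island fragments, and for the same island fragments scaled to themselves. In muscle the tested island fragments centre at 4.36 while all tested fragments centre at −0.34.

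A small set of islands was read in ESC and nearly nowhere else. Znrf4, a gene for a membrane E3 ubiquitin ligase, has a promoter fragment of 1695 bp that held 107, 104 and 96.4 CPM in CGR8, RD1 and E14Tg2. It had no read in any myoblast or passage 0 library, and 0.37, 0 and 0.299 CPM in muscle. Against myoblasts it was at least 988-fold higher, taking 3 reads over the myoblast group as the limit that a count of 0 allows (edgeR adjusted p of 0.000122), and its log2 change in muscle was −7.96 ± 0.67 (SE, edgeR adjusted p of 1.61e-05). Emx2os, the antisense transcript of the developmental factor Emx2, has an intronic fragment with 95, 70.1 and 42.7 CPM in ESC. The myoblasts held 3 reads of it in all, so that ESC stood at 748 times myoblasts (95% interval 256 to 3627), and muscle 0.0925, 0 and 0.697 CPM (log2 change −7.28 ± 0.85, edgeR adjusted p of 0.000104). The ESC lines and the other groups did not overlap for either fragment. Day 4 of culture 27 held 2.54 CPM of Emx2os, the highest outside ESC.

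Slc5a5, the sodium and iodide transporter, Nkx2-6, a homeobox factor of the heart and pharynx, the uncharacterised E030030I06Rik and an intergenic fragment at chr17:48110242-48111335 shared this pattern. These 4 had 5 CPM or more in each ESC line and under 1 CPM in each of the other 19 samples, a set that was picked after its values were seen. Slc5a5 held 21.8, 12.3 and 15.6 CPM in ESC and Nkx2-6 held 10.9, 14.1 and 12.1 CPM. The intergenic fragment held 47.3, 28.0 and 25.7 CPM in ESC, and of the other samples only the uninjured fresh library had any, at 0.321 CPM. Nkx2-6 had no read in myoblasts, at least 112-fold lower, and 1 read in muscle, where ESC stood at 353 times (95% interval 63.1 to 13984). That fresh library also held 2.89 CPM of Znrf4, 1.60 CPM of Emx2os, 0.962 CPM of Nkx2-6 and 0.802 CPM of Slc5a5, and both passage 0 cultures were at 0 for each of them. The exon fragment of Cdh15, the muscle cadherin, varied within ESC, with 1.22, 6.84 and 15.0 CPM. It had no read in muscle, which was at least 52.1-fold lower than ESC (edgeR adjusted p of 0.00239).

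Fewer island fragments passed the test between myoblasts and ESC. Of 523 tested, 27 were higher in myoblasts and 10 lower (edgeR, adjusted p under 0.05), beside 8.22% and 11.7% of all fragments tested. The median log2 change was 1.57 over the island fragments and −0.08 over all, and 470 of the 523 lay above 0. Scaled to the island fragments, 4 were higher and 12 lower, beside 4.55% and 9.76% of all. The 4 were among the 27 and all 10 lower fragments were among the 12. Without culture 21, whose island sum was the lowest of the 3 myoblast cultures, 415 were higher and 15 lower of 624. Beside them, 3920 were higher and 3499 lower of all 28173 fragments in that fit. Without culture 26 or without E14Tg2, 22 and 21 were called in all, against 37 with every sample. By gene list, 1 of 21 developmental fragments was higher and 1 lower, 1 of 8 myogenic was lower, the 1 fibroblast fragment was higher, and no fragment of the other lists was called by edgeR.

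Rps4y2, annotated as a ribosomal protein S4 gene, had an exon fragment that was low in all ESC lines and high in every other library. It held 4.98, 5.55 and 2.39 CPM in ESC, 242, 143 and 112 CPM in myoblasts and 182, 87.6 and 256 CPM in muscle. The lowest of the 19 other samples, at 87.6 CPM, lay far above the highest ESC line, and no other fragment had 10 CPM or more in each of the 19 together with 5 times the highest ESC line, a rule set after the values were seen. The log2 change was 5.51 ± 0.68 in myoblasts (edgeR adjusted p of 0.000415) and 6.07 ± 0.57 in muscle (2.93e-05). Ribosomal protein genes have many near-identical copies, so its reads may be shared, which was not tested.

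Lgmn, the lysosomal protease legumain, has a promoter fragment with a single ESC read. Myoblasts held 1.90 CPM in culture 21, 26.5 CPM in culture 27 and 15.1 CPM in culture 26, and muscle 31.7, 36.1 and 21 CPM. Muscle was 1265 times ESC (95% counting interval 226 to 50009) and myoblasts 595 times (106 to 23542), with edgeR adjusted p of 9.33e-06 and 0.000693. The lowest samples outside ESC were passage 0 of culture 27 at 0.218 CPM and day 1 of culture 21 at 0.424 CPM. Csrp2bp, a subunit of a histone acetyltransferase complex, held 0.245, 0.198 and 0.119 CPM in ESC at its exon fragment. It held 16.8, 31.2 and 89.4 CPM in myoblasts and 8.51, 8.92 and 15.5 CPM in muscle, so that here myoblasts lay above muscle without overlap. Its log2 change from ESC was 7.90 ± 0.89 in myoblasts (edgeR adjusted p of 0.00026) and 6.42 ± 0.58 in muscle (2.41e-05), and the difference between muscle and myoblasts did not pass the test (adjusted p of 0.0903). Pcp4l1, a gene for a small protein related to Pcp4, held 0.571 to 0.893 CPM in ESC, 1.54, 43.1 and 16.0 CPM in myoblasts and 31.6, 38.6 and 23.2 CPM in muscle, with log2 changes of 4.77 ± 0.96 and 6.27 ± 0.50. Ebf1, a factor of B cell and adipocyte development, held 0.478 to 0.992 CPM in ESC and 3.68 to 9.92 CPM in muscle (log2 change 4.34 ± 0.64, edgeR adjusted p of 0.000422).

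**Figure D4:**
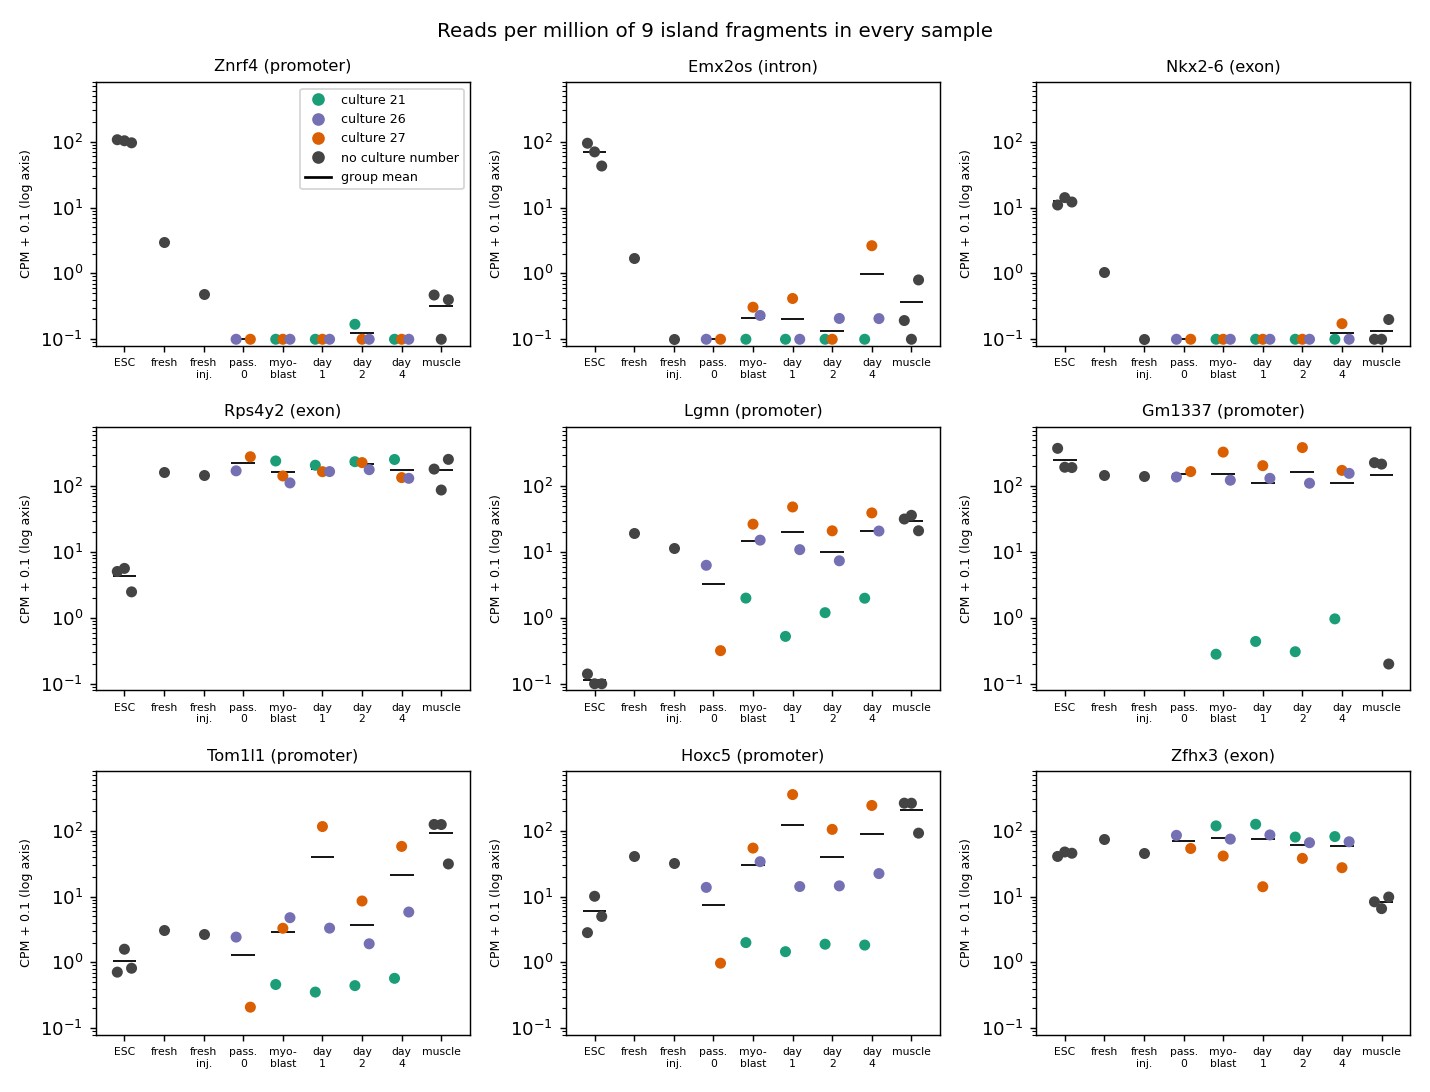
CPM plus 0.1, on a log axis, of 9 named island fragments in every sample, by group. Znrf4, Emx2os and Nkx2-6 are high in ESC, Rps4y2 and Lgmn are low there, Tom1l1 and Hoxc5 are high in muscle and in day 1 and day 4 of culture 27, Zfhx3 is low in those libraries, and Gm1337 is near 0 in culture 21 and muscle sample 3.

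Against dividing myoblasts, muscle had 225 island fragments higher and 4 lower of 629 tested, beside 13.7% and 17.4% of all 20274 fragments. The median log2 change was 2.41 over the island fragments and −0.13 over all fragments. Muscle samples 1 and 2 are of mixed background and the myoblasts of C57BL/6J, so strain and tissue cannot be told apart for them. Without muscle sample 1 or without sample 2, edgeR called no fragment of any kind among the 23111 and 23481 tested, islands included. The island median log2 change stayed at 2.51 and 1.98 there, and 355 and 250 island fragments had an unadjusted p under 0.05. The C57BL/6J sample alone also gave no call, with an island median of 1.26 and 59 at an unadjusted p under 0.05. The calls in both directions numbered 229 with every sample (36.4%, beside 31.1% of all fragments) and 91 of 657 without culture 27 (13.9%, beside 16.4%). They numbered 56 of 662 without culture 26 (8.46%, beside 14.6%) and 348 of 670 without muscle sample 3 (51.9%, beside 29.7%). Scaled to the island fragments, 8 were higher and 20 lower, beside 0.207% and 38.3% of all. All 8 were among the 225, and all 4 lower ones stayed lower. The library totals in place of TMM gave 88 higher and 8 lower, beside 1313 higher and 4137 lower of all 20274 fragments. The medians were 1.68 over the island fragments and −0.65 over all.

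Tom1l1, an adaptor of endosomal sorting, showed the contrast at its promoter at a high level. It held 125, 124 and 31.3 CPM in muscle and 0.362, 3.20 and 4.69 CPM in myoblasts, with 0.612, 1.49 and 0.716 CPM in ESC. Day 1 and day 4 of culture 27 were inside the muscle range at 116 and 57.8 CPM, while every other cultured library held at most 8.48 CPM. Its log2 change was 5.80 ± 1.011 from myoblasts (edgeR adjusted p of 0.012) and 7.55 ± 0.76 from ESC (4.65e-05). Tatdn1, a putative deoxyribonuclease gene, held 33.0, 39.9 and 10.3 CPM in muscle and 0, 0.93 and 0.651 CPM in myoblasts, and again 23.1 and 11.96 CPM on days 1 and 4 of culture 27. Pfn1, the actin-binding profilin, had 1 myoblast read, and muscle stood at 127 times myoblasts (95% counting interval 22.3 to 5039). The Pfn1 fragment also lies at Eno3, the muscle enolase, and cannot be given to either gene.

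The 4 fragments lower in muscle than in myoblasts lay in exons of Zfhx3, Prickle1, ORF61 and Sox5. Zfhx3, a large zinc finger homeobox factor, held 8.23, 6.47 and 9.75 CPM in muscle against 119, 41.2 and 74.6 CPM in myoblasts and 40.6, 47.5 and 45.5 CPM in ESC. Muscle did not overlap either group, and day 1 of culture 27 (14.02 CPM) was the lowest library outside muscle. Its log2 change was −2.86 ± 0.61 from myoblasts (edgeR adjusted p of 0.0136) and −1.64 ± 0.34 from ESC (0.00262). Prickle1, a planar polarity gene, held 3.24, 3.90 and 8.06 CPM in muscle and 23.4, 31.7 and 35.9 CPM in myoblasts. Sox5, a factor of cartilage and neural crest, held 3.14, 2.23 and 8.06 CPM and 16.3, 21.9 and 17.6 CPM, with an edgeR adjusted p of 0.0495 that is close to the threshold. All 4 were also lower once scaled to the island fragments. ORF61 was low in muscle, at 1.39 to 1.67 CPM, and spread most among cultures, from 0.157 CPM on day 2 of culture 27 to 135 CPM on its day 4.

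During differentiation no island fragment passed the edgeR test against dividing myoblasts, on day 1 (584 tested), day 2 (512) or day 4 (625). At an unadjusted p under 0.05 there were 1, 2 and 5, beside 0.0273%, 0.294% and 0.37% of all fragments, and DESeq2 called 0 on each day. Their median log2 changes were 1.12, −0.60 and 1.16. Pairing the stages by culture gave 12 higher fragments on day 4 of 625, beside 0.174% of all fragments. Between passage 0 and the later myoblasts, 0 of 573 passed edgeR and 0 passed DESeq2, with 42 at an unadjusted p under 0.05, beside 2.84% of all fragments. Paired by culture, with 2 pairs and culture 21 left out, 297 were higher in the later myoblasts and 1 lower of 558, beside 3.99% of all fragments higher. Leaving out culture 21 without pairing gave 0 calls, with 394 of 558 at an unadjusted edgeR p under 0.05, beside 10.9% of all fragments. Over all 7 replicated groups, 129 of 824 differed in at least 1 group, beside 19.6% of all fragments. That count ranged from 34 of 814 (4.18%, beside 12.6% of all) to 376 of 789 (47.7%, beside 27.6%) when single samples were left out. Without days 1 and 4 of culture 27, a choice made after the data were seen, it was 401 of 736 (54.5%, beside 33.1%). The test over the 7 groups was not paired by culture. It took stages of the same culture as independent samples, which they are not.

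Between the fresh libraries and the passage 0 cultures the largest ratios rested on few passage 0 reads. Kif26b, a kinesin gene of kidney development, had 40 reads in the uninjured and 50 in the injured fresh library against 1 over both passage 0 cultures. The ratios were 108 (95% counting interval 18.4 to 4384) and 109 (18.7 to 4389). Rspo1, an R-spondin that amplifies WNT signalling, was at 50.1 times (12.9 to 429) and 55.6 times (14.6 to 471). Other fragments were lower in fresh cells. Zfp770, a zinc finger gene, was at 0.191 (0.0601 to 0.466) of its passage 0 level in the uninjured and 0.123 (0.0326 to 0.328) in the injured library. Dact3, an antagonist of WNT signalling, was at 0.499 (0.401 to 0.617) in the uninjured library, and Rps4y2 at 0.712 (0.664 to 0.763) and 0.644 (0.602 to 0.687). With 1 fresh library of each kind these are ratios of libraries, with counting error only.

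By function, genes of fibre contraction and muscle metabolism had the highest median change from ESC and from myoblasts to muscle among the 11 gene lists with a tested fragment. This list has 19 island fragments at 7 of its 58 genes, and all 6 that were tested were higher in muscle than in ESC (edgeR, median log2 change 6.83, against 4.36 over all island fragments tested) and higher than in myoblasts (median 5.25, against 2.41). Over all island fragments tested the shares higher were 86.7% and 35.8%. Only 2 of the list were tested between myoblasts and ESC, so most of the 6 passed the low-count filter through their muscle reads. A high muscle level was thus in part a condition of being tested. The ranking also covers few fragments, with 1 tested fragment each in the endothelial, fibroblast and adipocyte lists. Scaled to the island fragments, 3 of the 6 stayed higher than ESC (median 2.59) and 1 higher than myoblasts. Its summed level was 126 to 583 CPM in muscle, 7.26 to 20.2 CPM in ESC and 6.43 to 97.1 CPM in myoblasts. Ldb3 encodes the Z-disc protein Cypher, and fragments A and B printed above adjoin in its intron. Fragment A held 24.8, 41.3 and 5.67 CPM in muscle and 0.0906, 1.03 and 1.30 CPM in myoblasts. Fragment B held 31.9, 36.6 and 11.1 CPM in muscle and 0.0906, 1.34 and 1.30 CPM in myoblasts. In muscle both stood above every myoblast and ESC sample, and day 1 of culture 27 held 13.3 and 16.3 CPM. Because they share a site, they are not independent, and their log2 changes from myoblasts were 5.62 ± 1.07 and 5.58 ± 0.96 (edgeR adjusted p of 0.0121 and 0.012).

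Myogenic regulators held 74 island fragments, of which 8 of 9 tested were higher in muscle than ESC and 1, at Cdh15, lower (median log2 4.6), and 4 of 9 were higher than in myoblasts. Over all island fragments tested the shares higher were 86.7% and 35.8%, which these counts are near. The scaling to island fragments left 1 higher and 1 lower than in ESC. Pax3 and Pax7 specify muscle precursors, and their islands carried 4 and 9 fragments, of which 2 and 4 had enough reads. The Pax3 promoter fragment held 125, 169 and 42.1 CPM in muscle, 2.54, 29.9 and 9.11 CPM in myoblasts and 1.80, 5.95 and 3.10 CPM in ESC. Day 1 and day 4 of culture 27 held 103 and 64.0 CPM of it. The short Pax7 fragment printed above held 7.49, 11 and 3.68 CPM in muscle and at most 0.521 CPM in myoblasts. Its log2 change from myoblasts was 5.10 ± 1.00 and that of Pax3 3.803 ± 0.91 (edgeR adjusted p of 0.0124 and 0.0172). Myod1 and Myf5 have no single-copy island fragment in the table.

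Developmental factors outside the HOX clusters were the largest list, with 437 island fragments, of which 27 were tested between muscle and ESC, 24 were higher and 1 lower (median log2 4.15), and 11 of 29 were higher than in myoblasts. Both shares are near those of all island fragments, 86.7% and 35.8%. The developmental list, scaled to the island fragments, had a median of −0.08 against ESC, with 1 higher and 4 lower. HOX clusters held 60, with 4 of 4 tested higher in muscle than ESC and 3 of 4 higher than in myoblasts, and edgeR called none of the 4 in either direction once scaled to the island fragments (median 0.70 against ESC). The Hoxc5 promoter fragment was the strongest of these, with 263, 262 and 92.0 CPM in muscle, 1.90, 54.5 and 33.8 CPM in myoblasts and 2.73, 10.0 and 4.90 CPM in ESC. Day 1 of culture 27 exceeded all muscle samples with 355 CPM. Its log2 change was 6.07 ± 0.68 from ESC and 3.53 ± 0.99 from myoblasts (edgeR adjusted p of 8.62e-05 and 0.027). Lhx2 has 9 fragments with 47 reads in all, and none could be tested.

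Tested fragments of housekeeping genes, of the methylation machinery and of imprinted genes were also mostly higher in muscle than in ESC. Housekeeping genes held 30 island fragments, and 3 of 3 tested were higher in muscle than ESC and 2 of 3 higher than in myoblasts. Actb, the gene of cytoplasmic actin, held 127, 188 and 58.8 CPM at its promoter fragment in muscle, against 1.45, 18.7 and 14.7 CPM in myoblasts and 1.84, 3.87 and 2.15 CPM in ESC. Day 1 of culture 27 again exceeded all muscle samples, at 206 CPM. Gapdh, another housekeeping gene, has 1 fragment with 3 reads in all, too few for a test. Genes of DNA methylation and Polycomb silencing held 49, with 3 of 3 higher than ESC and 1 of 3 higher than myoblasts. Pcgf2, a Polycomb ring finger protein, held 346, 541 and 104 CPM in muscle and 6.65, 14.6 and 9.19 CPM in ESC. Imprinted genes held 62, with 3 of 4 higher than ESC, among them Phlda2, which restrains growth of the placenta, at 169, 239 and 91.8 CPM against 15.0, 22.4 and 9.55 CPM. Over all island fragments tested, 86.7% were higher in muscle than ESC, so these shares are near that of the islands as a whole. Scaled to the island fragments, 1 housekeeping fragment was higher than in ESC, 1 of the methylation and Polycomb list was lower and 2 imprinted ones were lower, so the direction of these lists depends on the scaling.

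Germ line genes held 27 fragments and pluripotency genes 34. Of the germ line list 1 of 2 tested was higher in muscle than ESC (edgeR), and neither passed the test against myoblasts. The shares higher among all tested island fragments were 86.7% and 35.8%. Scaled to the island fragments, both were lower in muscle than in ESC. The Stra8 promoter fragment, from a gene of meiotic entry, stayed between 2.90 and 40.03 CPM in all samples, with 14.7, 12.3 and 17.3 CPM in ESC and 12.02, 11.8 and 13.2 CPM in muscle. None of the pluripotency fragments had enough reads for a test between muscle, myoblasts and ESC, the 1 tested over the 7 groups, at Nr5a2, did not pass edgeR (adjusted p of 0.859), and their sum never exceeded 2.90 CPM. Dazl has 3 fragments with 1 read in all, and Sycp3, Piwil1, H19, Peg3, Snrpn and Hoxa2 have no fragment here.

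Markers of other cell types in whole muscle were thinly covered. Fibroblast genes held 16 fragments, with 1 of 1 tested higher in muscle than in ESC and than in myoblasts. This was Osr1, a factor of connective tissue, at 179, 336 and 107 CPM in muscle, 32.3, 78.3 and 99.3 CPM in myoblasts and 4.24, 23.3 and 11.3 CPM in ESC. Endothelial genes held 18, with 1 of 1 higher in both comparisons, and neither this fragment nor Osr1 passed the test once scaled to the island fragments. Of all tested island fragments, 86.7% were higher in muscle than in ESC and 35.8% higher than in myoblasts. The endothelial list had a sum of 20.3 to 82.3 CPM in muscle, 4.00 to 10.8 CPM in ESC and 1.63 to 16.0 CPM in myoblasts. Adipocyte genes held 26, and the 1 that was tested did not pass edgeR in either comparison, with sums of 2.09 to 3.57 CPM in muscle. Blood cell genes held 12 and neural and Schwann cell genes 49, with none tested between muscle and ESC or myoblasts, and in muscle their sums were 0.199 to 0.334 CPM and 0.597 to 1.11 CPM. Day 4 of culture 27 had the highest sums of the adipocyte and neural lists, with 64.2 and 24.3 CPM. Of the neural sum, 21.5 CPM came from 1 promoter fragment, at Nes. The part of these cells in the muscle values was not tested.

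**Figure D5:**
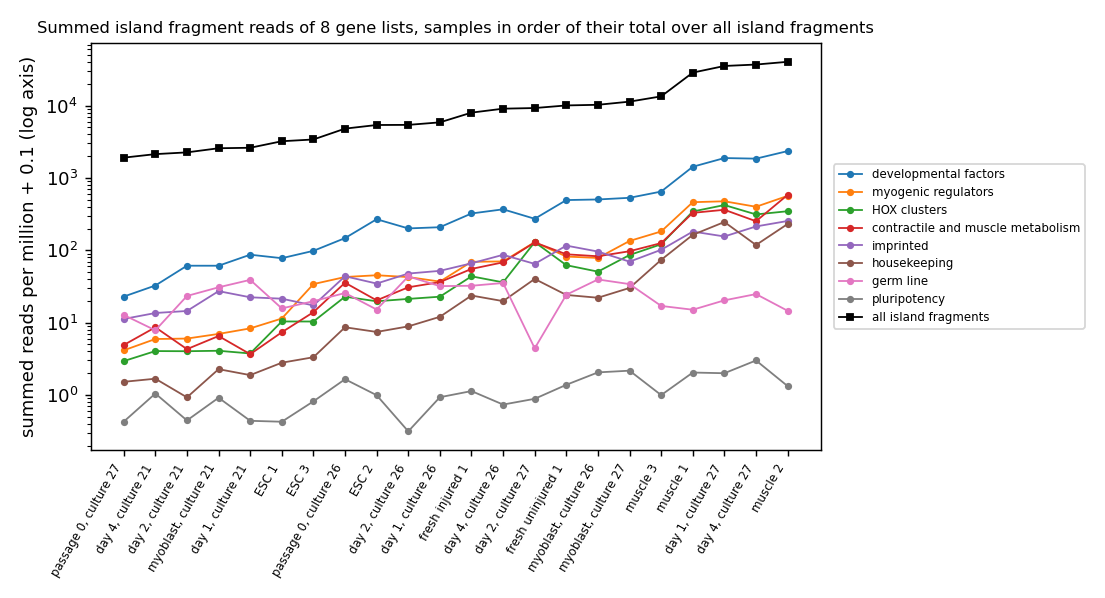
Summed CPM plus 0.1 of 8 gene lists and of all single-copy island fragments in each sample, on a log axis, with samples ordered by the island total. Most lists climb with the total, from passage 0 of culture 27, culture 21 and ESC to muscle and days 1 and 4 of culture 27. Germ line genes stay between 4.32 and 43.5 CPM and pluripotency genes at or below 2.90 CPM.

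Some islands were read in every sample at a high level. Fragments at 10 CPM or more in all 22 samples numbered 6, a count made after the values were seen, at 4933415F23Rik, Slc8a2, Caskin2, Pxdn, AI661453 and an intergenic site on chromosome 7. The promoter fragment of 4933415F23Rik, an uncharacterised gene, had the highest level of them. It held 171, 173 and 125 CPM in ESC, 501, 320 and 360 CPM in myoblasts and 77.5, 120 and 159 CPM in muscle. With scaling over all fragments it did not pass the test for myoblasts against ESC, muscle against ESC or muscle against myoblasts (edgeR adjusted p of 0.0508, 0.398 and 0.0652). Scaled to the island fragments, it was lower in muscle than in ESC (log2 change −3.71 ± 0.99, edgeR adjusted p of 0.000275). The groups overlapped between muscle and ESC only. Tal2, a factor known from T cell leukaemia, and Psme4, a proteasome activator, were also among the highest but followed the muscle pattern. Tal2 held 402, 683 and 157 CPM in muscle and 11.4, 23.6 and 12.1 CPM in ESC. Psme4 held 455, 675 and 223 CPM and 14.4, 38.6 and 25.3 CPM, with log2 changes of 5.64 ± 0.68 and 5.04 ± 0.59.

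The promoter fragment of Gm1337, a predicted gene, split samples in another way. Culture 21 held 0.181 CPM as myoblasts and 0.339, 0.207 and 0.868 CPM on days 1, 2 and 4, and the C57BL/6J muscle sample held 0.0995 CPM. The other muscle samples held 228 and 217 CPM, the ESC lines 377, 195 and 192 CPM, cultures 26 and 27 between 111 and 387 CPM, and the fresh libraries 149 and 145 CPM. No other fragment was under 1 CPM in those 5 samples and at 5 CPM or more in all others, and this one was picked after its values were seen. It split the muscle, myoblast and myotube groups within themselves. With scaling over all fragments it did not pass the edgeR test between groups. The adjusted p was 0.695 between myoblasts and ESC, 0.961 between muscle and ESC and 0.763 between muscle and myoblasts. Scaled to the island fragments, it was lower in muscle than in ESC (log2 change −4.88 ± 1.06, edgeR adjusted p of 1.07e-05).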

How the data were processed

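AIMS-seq was read out on the Illumina GA2 with mm9 as the reference, per the labels' protocols. Bowtie 0.11.3 and an unnumbered DESeq appear in the submitters' processing notes. The table used gives whole read counts for each fragment in each library, as the authors deposited it. The authors' scaled and comparison tables were not used. Fragment ends lay at CCCGGG sites of mm9 in 100% of cases. Genes came from GENCODE M1, and a fragment was given to a gene that it overlaps or that starts within 2000 bp of it. The CpG and repeat classes are the authors'. The fragments and the gene lists were chosen with earlier results of these data known.

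Levels are CPM, counts per 1000000 reads of a library. Fold changes and their tests used edgeR 4.0.16 in R 4.3.3 on the samples of the groups compared, with the quasi-likelihood fit, TMM scaling over all fragments and filterByExpr at a minimum count of 10. P-values were adjusted by Benjamini-Hochberg over every fragment in the fit, at a threshold of 0.05. DESeq2 1.42.0 was an alternative. Sums were compared with 2-sided exact permutation tests in scipy 1.17.1. The scripts were tested on simulated data. The alternatives were other scalings, no filter, only fragments under 2000 bp in the fit, all groups in one fit, leaving out each sample and pairing by culture. The scaling to the island fragments and the fit without days 1 and 4 of culture 27 were added after the data were seen. Depth was 6237851 to 24505365 reads a sample, and intervals are 95% exact intervals for counting error.

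The naming rule chose the 10 fragments with the highest mean over the group means and up to 3 of each gene list. It also chose up to 6 by adjusted p, higher and lower, of each comparison, among called fragments at a gene whose groups do not overlap. A fragment of each of 15 set genes was added where any exists. So were the 5 largest ratios in each direction of each fresh library to passage 0 with 30 or more reads. Of these, the text names only some, and fewer in full. Those chosen after their values were seen are named so in the text.

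The culture numbers in the sample titles pair the stages of cultures 21, 26 and 27, since the labels give them as the same culture. Over the deviations of 824 fragments from group means, myoblast and myotube samples of the same culture correlated at a median of 0.596 (0.0494 to 0.908, 18 pairs) and those of different cultures at −0.361. Deviations from a mean of 3 samples sum to 0, which by itself pulls the correlations between different cultures below 0. Between myoblasts and passage 0 the 2 same-culture pairs gave −0.581 and 0.535. With 2 passage 0 samples, the deviations of these are mirror images of each other.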

Additional observations from a re-analysis of the deposited data

How the results depend on the processing

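The higher island sum in muscle than in ESC and myoblasts, and the direction of the 12 fragments named for muscle against ESC and of the 10 named for muscle against myoblasts, held under all alternatives run. The sums of day 1 and day 4 myotubes against myoblasts reversed without the culture 27 sample of that day. Their log2 ratios were 0.86 and 0.99, with ranges of −0.93 to 1.35 and −0.53 to 1.51 when single samples were left out. The log2 ratio of the number of fragments with 5 or more reads is near 0 and reversed between single samples left out, with ranges of −0.20 to 0.42 for myoblasts against ESC, −0.42 to 0.40 for day 1 and −0.25 to 0.82 for day 4. The count of island fragments called between myoblasts and ESC was 37 of 523 (7.07%, beside 19.9% of all fragments). It was 115 of 816 with DESeq2 (14.1%, beside 13.7%) and 160 of 4490 without the filter on low counts (3.56%, beside 4.50%). Scaled to the island fragments it was 16 of 523 (3.06%, beside 14.3%). With single samples left out it ran from 21 of 622 (3.38%, beside 11.8%) to 430 of 624 (68.9%, beside 26.3%). Between muscle and ESC it was 552 of 617 (89.5%, beside 59.1% of all fragments). It was 637 of 1138 with DESeq2 (56.0%, beside 24.9%) and 660 of 4286 without the filter (15.4%, beside 12.3%). Scaled to the island fragments it was 159 of 617 (25.8%, beside 89.1%). With single samples left out it ran from 531 of 642 (82.7%, beside 49.9%) to 604 of 672 (89.9%, beside 60.5%). Between muscle and myoblasts it was 229 of 629 (36.4%, beside 31.1% of all fragments). It was 372 of 892 with DESeq2 (41.7%, beside 21.3%) and 369 of 4096 without the filter (9.01%, beside 4.26%). Library totals gave 96 of 629 (15.3%, beside 26.9%), and all groups in one fit gave 19 of 1117 (1.70%, beside 11.5%). Scaled to the island fragments it was 28 of 629 (4.45%, beside 38.6%). With the C57BL/6J muscle sample alone the island median log2 change was 1.26. With single samples left out the count ran from 0, with no call of any kind, to 348 of 670 (51.9%, beside 29.7%). Leaving out a sample turned 26 of 60 values of the 10 fragments named for muscle against myoblasts to an adjusted p over 0.05. Without the filter, edgeR called 5 of 4228 island fragments on day 1 (0.118%, beside 0.0222% of all) and 44 of 4424 on day 4 (0.995%, beside 0.0771%). The replicate block by culture gave 12 of 625 on day 4 (1.92%, beside 0.174% of all fragments). For myoblasts against passage 0, where it leaves out culture 21, it gave 298 of 558 (53.4%, beside 4.69%). It left the count at 0 on days 1 and 2, the other comparisons it was run for. Over the 7 groups the count was 129 of 824 (15.7%, beside 19.6% of all fragments) and 540 of 1004 with DESeq2 (53.8%, beside 27.6%). It was 55 of 819 with only fragments under 2000 bp in the fit (6.72%, beside 13.8%) and 60 of 824 with library totals (7.28%, beside 21.1%). It was 1078 of 6777 without the filter (15.9%, beside 8.49%) and 20 of 824 scaled to the island fragments (2.43%, beside 12.7%). Without day 1 and day 4 of culture 27 it was 401 of 736 (54.5%, beside 33.1%). With single samples left out it ran from 34 of 814 (4.18%, beside 12.6%) to 376 of 789 (47.7%, beside 27.6%). The cause of these shifts was not tested. Where a group is left with 1 sample, that sample is assumed to vary like the others. Single fragments are limited by depth, since the median one had 1 read over all samples.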

Other observations

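Several further island fragments at developmental genes were read in muscle and in days 1 and 4 of culture 27. Dlx6os1, the antisense transcript of the Dlx5 and Dlx6 region, has an intronic fragment at 40.1, 41.0 and 13.1 CPM in muscle, at 48.2 CPM on day 1 and 21.7 CPM on day 4 of culture 27, and at 0.358 CPM or less in 2 ESC lines and 0.595 CPM in RD1. Tbx15, a T-box factor of limb and skeletal muscle development, held 10.2, 20.8 and 3.19 CPM in muscle and at most 1.17 CPM in myoblasts. Hoxd9 held 4.16, 3.57 and 2.79 CPM in muscle and at most 1.45 CPM in myoblasts, and its highest value was 7.25 CPM on day 4 of culture 27. Smox, spermine oxidase, was instead lowest in culture 27 on day 2, at 1.49 CPM, and highest in culture 26 on day 4, at 518 CPM.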
